A study of Mus musculus with 6 samples.

Results

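Chemokines are small secreted proteins that steer the movement of leukocytes, and most act through G-protein-coupled receptors on the responding cell. They fall into CC, CXC, CX3C and XC classes by the spacing of their first cysteines. Inflammatory chemokines are induced by interferons, NF-kB and other danger signals, whereas homeostatic chemokines are made steadily by lymphatic vessels, fibroblasts and epithelium and place resident immune cells in the skin. Atypical receptors bind chemokines without classical G-protein signalling and remove or transport them.

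The genes described here were all rows of the read-count table with a symbol of the Ccl, Cxcl, Cx3cl, Xcl, Ccr, Ccrl2, Cxcr, Cx3cr, Xcr or Ackr series, apart from 2 CXC receptor genes that the selection sets aside and that are not analysed here. This gave 56 of the 18404 genes in the table. They comprised 36 ligands, 15 signalling receptors and 5 atypical receptors. A mean of at least 10 counts over the 6 libraries was reached by 34 of them (22 ligands, 7 signalling receptors and 5 atypical receptors), and the other 22 were near-absent.

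Ear skin was taken from mouse pups on postnatal day 3, and its poly(A) RNA was sequenced in 3 libraries labelled Vegfr2ecko (here ecko, an endothelial knockout of Kdr) and 3 control libraries. Kdr encodes VEGFR2, the receptor through which VEGF-A drives endothelial growth. Tamoxifen is recorded for both groups, given daily from postnatal day 1 at 60 µg, and the series name gives 48 h. The controls are littermates whose genotype is not stated, the Cre line is not named, and the labels do not say whether replicates are separate animals, so the p-values cover only the spread among these libraries, which may be technical.

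Each library held 16987130 to 17979182 expected counts, which are estimated read numbers per gene. Kdr had 348, 431 and 370 counts in ecko libraries 1 to 3, against 1599, 1860 and 1337 in control libraries 1 to 3, with a log2 fold change of -2.05 ± 0.12 (SE) and an edgeR adjusted p of 0.000200. All 7 keratinocyte and 6 fibroblast markers were detected. The groups each held 1 library nearly without Y-linked reads (ecko 3 and control 2). Control 3 had the lowest summed level of macrophage, skeletal muscle and erythroid markers of the 6 libraries. Levels are given as CPM, which are counts made comparable between libraries by TMM normalisation, as mean ± SD over 3 libraries, and fold changes come from edgeR's quasi-likelihood test with Benjamini-Hochberg adjustment over 14920 genes and a threshold of 0.05. In whole skin, fewer cells of a type and less RNA per cell cannot be told apart.

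Per length, the chemokine RNA of neonatal ear skin was led by homeostatic ligands. The epithelial and stromal ligand Cxcl14 stood highest, with 100.4 ± 6.42 CPM per kb of exon in ecko and 104.7 ± 7.02 in controls. Ccl21a, the lymphatic vessel ligand that guides CCR7-bearing dendritic cells, came next with 46.6 ± 5.77 CPM per kb in ecko and 37.6 ± 9.0 in controls. Ccl8, a chemokine of resident macrophages, had 23.1 ± 5.67 CPM per kb in ecko and 18.6 ± 12.9 in controls, and Cxcl12, the fibroblast ligand that retains many leukocytes, had 19.1 ± 0.40 in ecko and 18.5 ± 1.03 in controls. Ccl8 and Cxcl12 did not differ beyond their spread. The most abundant receptor per length was the atypical scavenger Ackr3, at 10.4 ± 0.40 CPM per kb in ecko and 11.6 ± 1.11 in controls, followed by the myeloid receptor Ccr1 (6.19 ± 0.13 in ecko and 4.73 ± 1.00 in controls). These orders rest on merged exon lengths. Before division by length, Cxcl12 (157 CPM in ecko and 152 in controls) stood above Ccl21a (40.6 and 32.7). Likewise Ackr4 (26.4 and 25.4 CPM) stood above Ccr1 (17.5 and 13.4).

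**Figure D1:**
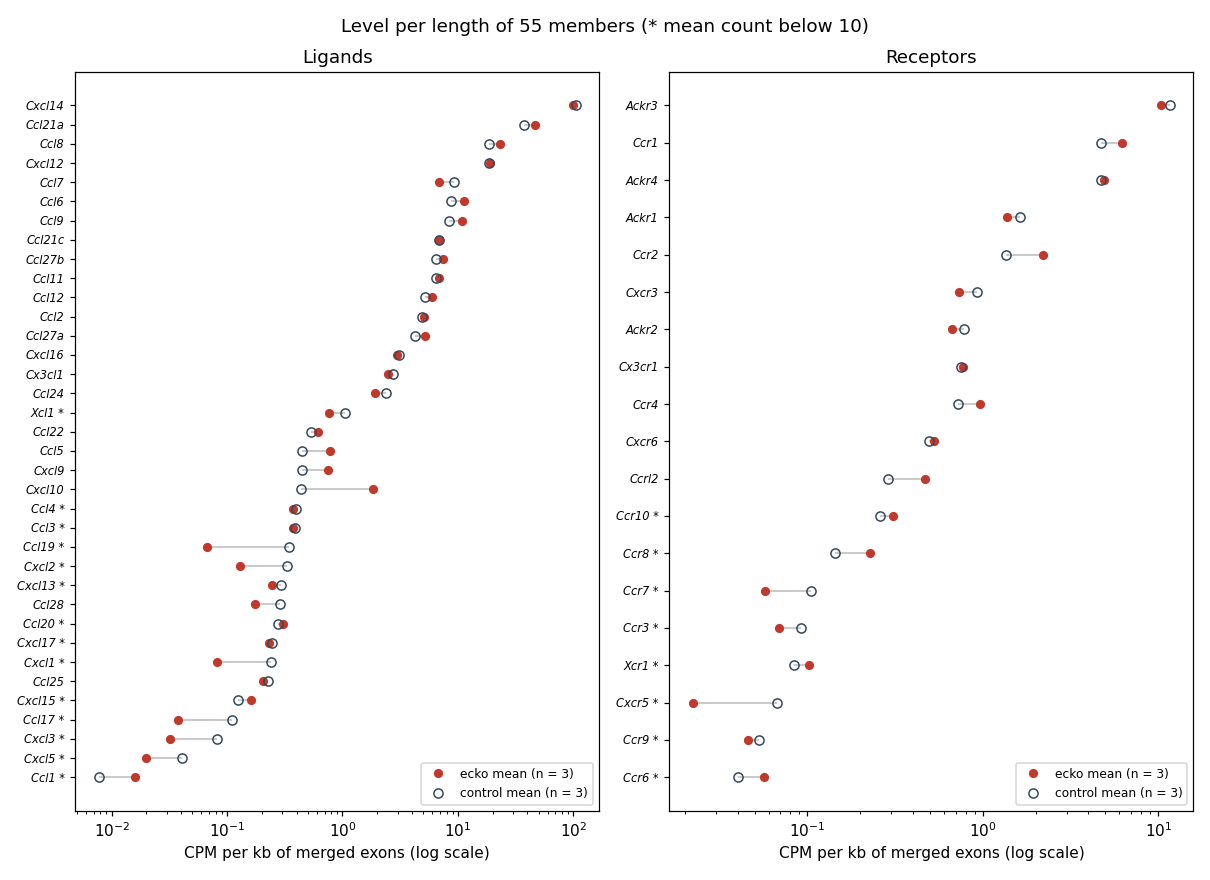
Level of 55 of the genes in CPM per kb of merged exons, on a log axis, as means of 3 ecko (filled) and 3 control (open) libraries; ligands are on the left and receptors on the right, and asterisks mark a mean count below 10. Cxcl14 and Ccl21a stood highest among ligands and Ackr3 among receptors, while the low-level Cxcl10 had the widest gap between the groups among genes with a mean of at least 10 counts.

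Of the 34 genes above the minimum, 33 also passed the low-count filter and were compared between groups. None of the 33 passed the edgeR test adjusted over all genes, and the smallest adjusted p was 0.221, for Cxcl10. By DESeq2 1 was called, again Cxcl10, higher in ecko, and by limma-voom 0. Over all genes edgeR called 0.0% higher and 0.0067% lower in ecko, and DESeq2 called 0.546% higher and 0.165% lower. At an unadjusted edgeR p under 0.05 there were 7 higher (21.2%) and 1 lower (3.03%), against 4.92% higher and 4.1% lower over all genes tested. Without control 2 these counts were 3 and 0, without ecko 1 they were 4 and 0, and without control 1 they were 7 and 2. Without ecko 2 or ecko 3 they were 5 and 0. In 7 the 3 ecko libraries all lay above the 3 controls (21.2%), against 7.55% of all genes, and in 1 they all lay below (3.03%), against 8.11%. A higher mean in ecko was found in 21 of the 33 (63.6%), against 49.5% of all genes, and the median log2 fold change was 0.09, against -0.002 over all genes. The ligands had 13 of 21 higher with a median of 0.10, the signalling receptors 6 of 7 with a median of 0.39, and the atypical receptors 2 of 5 with a median of -0.16.

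**Figure D2:**
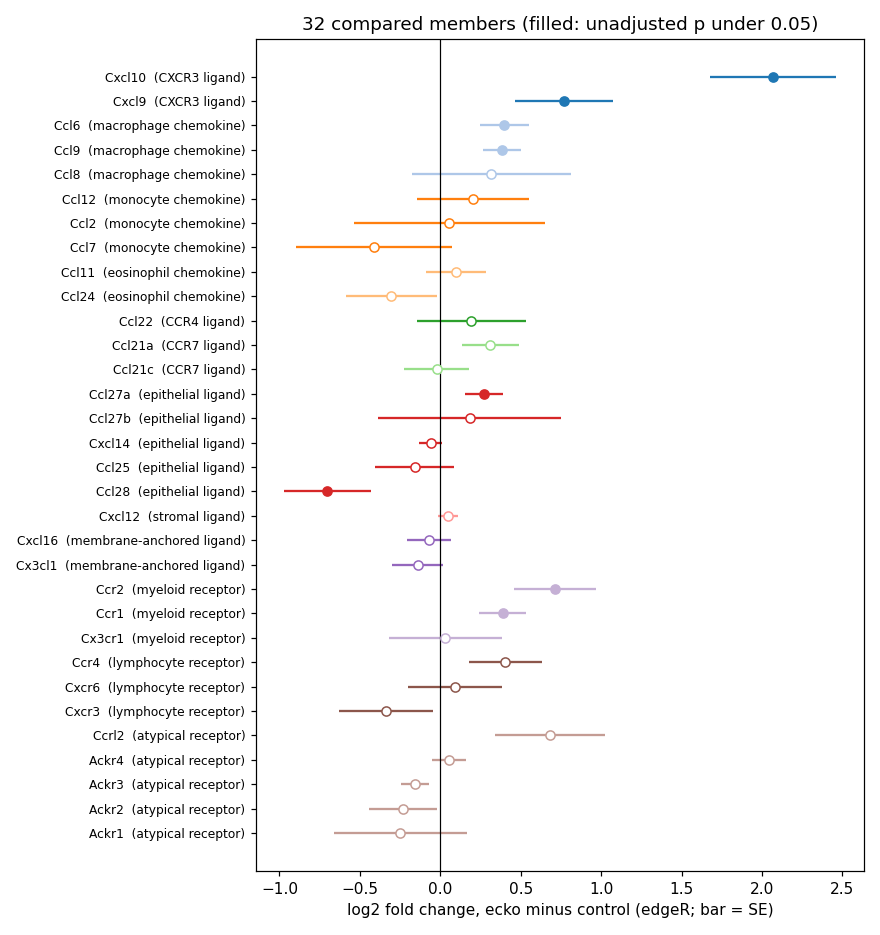
Log2 fold change, ecko minus control, of 32 compared genes by role, with bars for the SE of edgeR's fit and filled points for an unadjusted p under 0.05. Cxcl10 lay farthest from 0 at 2.07, the signalling receptors mostly lay above 0, and the atypical receptors other than Ccrl2 and Ackr4 lay below 0.

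The widest difference among the compared genes was in the ligands of CXCR3, the receptor of activated T and NK cells. Cxcl10, which is induced by type I interferon and interferon gamma, had 121, 51 and 47 counts in ecko libraries 1 to 3, against 17, 18 and 17 in control libraries 1 to 3. The lowest ecko library was above the highest control, the controls were almost equal, and ecko 1 was far above ecko 2 and 3. The means were 4.11 ± 2.27 CPM in ecko and 0.977 ± 0.020 CPM in controls, a 4.19-fold difference (log2 fold change 2.07 ± 0.39, SE; edgeR adjusted p 0.221). Cxcl9, induced mainly by interferon gamma, had 60, 31 and 30 counts in ecko against 22, 23 and 26 in controls. Its groups did not overlap either, and ecko 1 was again the highest library. The means were 2.28 ± 0.92 CPM in ecko and 1.34 ± 0.14 CPM in controls (log2 fold change 0.77 ± 0.30, adjusted p 0.524).

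Without ecko 1 the log2 fold change of Cxcl10 was 1.51 and that of Cxcl9 was 0.38. Cxcl10 passed with DESeq2 (adjusted p 0.000414). Exons of Cxcl10 share 133 bases with Art3 on the opposite strand, 5.9% of the exon length of Cxcl10, and the strand setting of the counting is not given in the sources used here. Expected counts of Cxcl10 and Art3 are whole numbers in every library and show no sign of reads divided between them. Art3 itself had a log2 fold change of 0.03 (edgeR adjusted p 0.932).

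The mean of their receptor gene was not higher in ecko. Cxcr3 had 23, 30 and 14 counts in ecko and 30, 25 and 30 in controls, so the groups overlapped and the lowest library was ecko 3 (log2 fold change -0.34 ± 0.29, -0.11 without ecko 3 and -0.60 without ecko 2). The 3 interferon genes measured were near 0, and no alpha or lambda interferon gene was analysed here. Interferon gamma (Ifng) had 0, 1 and 3 counts in ecko and 0 in every control, where 3 counts is the limit that a count of 0 allows in a library. Ifnb1 had 1 count, in control 2, and Ifnk had 0 in every ecko library and 2, 1 and 0 in controls. All 29 interferon-induced companion genes in the table were higher on average in ecko, against 49.5% of all genes tested. Their median log2 difference was 0.99. Their summed level was 557 to 826 CPM in ecko and 299 to 445 CPM in controls, and ecko 1 had the highest sum of the 6 libraries. At an unadjusted edgeR p under 0.05 there were 29 higher, against 4.92% of all genes tested. Past the adjusted threshold were 0 by edgeR (smallest adjusted p 0.150), 0 by limma-voom and 22 by DESeq2. Over all genes DESeq2 called 0.546% higher in ecko. The interferon list was written with earlier results of these data known, and its part in the Cxcl9 and Cxcl10 values was not tested.

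Cxcl9 (chromosome 5, 92321331 to 92328079) and Cxcl10 (chromosome 5, 92346638 to 92348889) lie 18.56 kb apart in the RefSeq annotation of GRCm38.p6. Their promoters are shown because these genes had the largest differences among the compared ligands and share an inducer. Each runs 5′ to 3′ on the minus strand from 250 bases before to 50 bases after the annotated start, from RefSeq on GRCm38.p6, at chr5:92348840-92349139 for Cxcl10 and chr5:92328030-92328329 for Cxcl9. Capitals mark matches, on either strand, to the interferon-stimulated response element GAAANNGAAA or to the NF-kB consensus GGGRNWYYCC. In these letters N is any base, R is A or G, W is A or T, and Y is C or T.
Cxcl10: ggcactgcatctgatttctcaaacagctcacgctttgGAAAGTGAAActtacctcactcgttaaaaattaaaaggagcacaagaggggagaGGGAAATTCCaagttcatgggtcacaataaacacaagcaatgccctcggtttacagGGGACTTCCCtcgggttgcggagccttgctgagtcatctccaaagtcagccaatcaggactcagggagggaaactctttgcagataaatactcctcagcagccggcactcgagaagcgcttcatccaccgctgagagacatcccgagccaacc
Cxcl9: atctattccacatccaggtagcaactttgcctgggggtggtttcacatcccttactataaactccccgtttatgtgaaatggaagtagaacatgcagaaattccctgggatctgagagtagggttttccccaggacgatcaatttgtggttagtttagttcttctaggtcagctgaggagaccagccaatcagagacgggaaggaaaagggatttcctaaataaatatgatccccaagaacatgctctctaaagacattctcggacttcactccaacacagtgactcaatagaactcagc

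In the Cxcl10 window the response element GAAAGTGAAA lies at -213 to -204 from the start, and the NF-kB matches GGGAAATTCC and GGGACTTCCC lie at -159 to -150 and -103 to -94, with no overlap between them. The Cxcl9 window holds no match to either set of letters, which says nothing of sites outside it or with other letters. Promoter sequence was found for 42 of the 56 genes. The response element matched in 3 of the 42 (Ccl19, Cxcl10 and Cxcl14), against 3.99% of all genes with a promoter and 3.44% of all 32851 promoter windows of 300 bases. The NF-kB consensus matched in 11 of the 42, against 5.14% of genes and 4.51% of windows. Of these, 5 were compared genes (Cxcl10, Ccl9, Ccl27a, Ccrl2 and Ackr2). The others were the near-absent Cxcl1, Cxcl2, Cxcl3, Ccl20, Ccr3 and Ccr6. The interferon gamma site TTCNNNGAA matched in 3 of the 42 (Ccl17, Ccr6 and Cxcl14), against 9.55% of genes and 8.3% of windows. These matches describe the letters and are not evidence of binding.

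**Figure D3:**
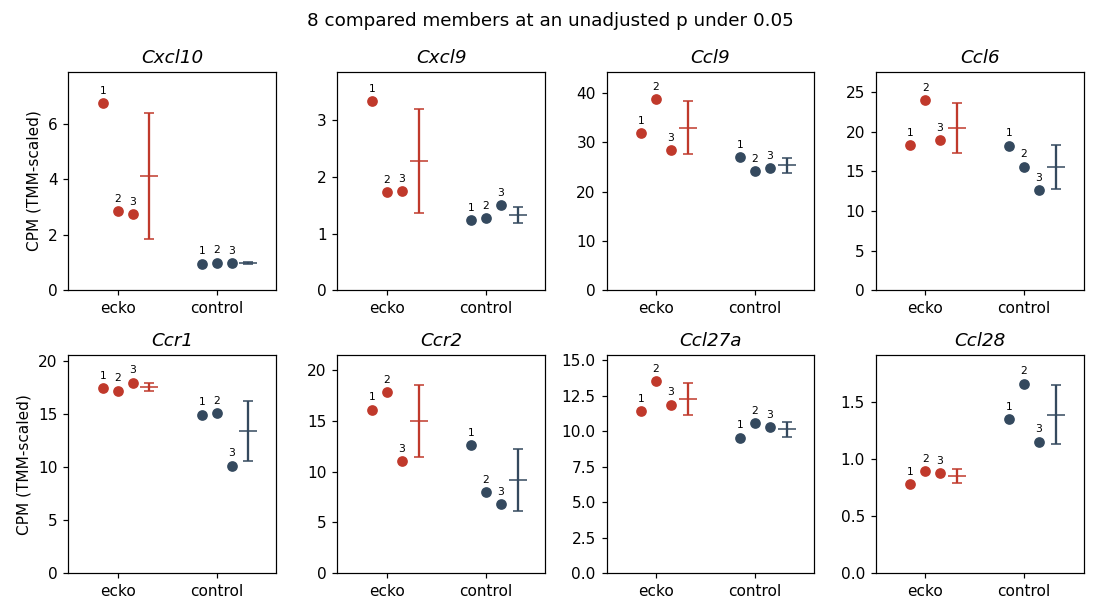
CPM of the 8 compared genes at an unadjusted p under 0.05 in each library, with replicate numbers beside the points and mean ± SD (n = 3) to their right, ecko on the left. Cxcl10 and Cxcl9 were highest in ecko 1, Ccl9, Ccl6 and Ccr2 in ecko 2, and the 3 ecko libraries of Ccl28 lay below every control.

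Chemokines made by macrophages in mice, Ccl6 and Ccl9, had higher means in ecko, by about the same factor. Ccl9 had 572, 692 and 485 counts in ecko libraries 1 to 3, against 479, 438 and 429 in control libraries 1 to 3. The groups did not overlap, and ecko 3 lay just above control 1. The means were 33 ± 5.31 CPM in ecko and 25.3 ± 1.43 CPM in controls (log2 fold change 0.38 ± 0.12, edgeR adjusted p 0.447). Ccl6 had 329, 429 and 325 counts in ecko and 325, 282 and 220 in controls. The groups touched at 325 counts and stood apart after scaling alone, with 20.5 ± 3.13 CPM in ecko and 15.5 ± 2.79 CPM in controls (log2 fold change 0.40 ± 0.15, adjusted p 0.513). Without ecko 2 the log2 fold changes were 0.25 for Ccl9 and 0.27 for Ccl6. The 2 genes lie 9.25 kb apart on chromosome 11.

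Among myeloid receptors, Ccr1, Ccr2 and Cx3cr1 had a higher mean in ecko. Ccr1, a receptor of monocytes, macrophages and neutrophils, had 314, 307 and 307 counts in ecko, against 266, 273 and 176 in controls. The ecko libraries were nearly equal and all above the controls, of which control 3 was far the lowest. The means were 17.5 ± 0.38 CPM in ecko and 13.4 ± 2.82 CPM in controls (log2 fold change 0.39 ± 0.15, adjusted p 0.513, and 0.23 without control 3).

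Ccr2, which brings inflammatory monocytes out of the marrow and into tissue, had 289, 318 and 188 counts in ecko, against 224, 145 and 118 in controls. The groups overlapped, since ecko 3 lay below control 1. The means were 14.97 ± 3.55 CPM in ecko and 9.14 ± 3.05 CPM in controls (log2 fold change 0.71 ± 0.26, adjusted p 0.513). Cx3cr1, a receptor of resident macrophages and patrolling monocytes, had 55, 63 and 65 counts in ecko and 56, 96 and 29 in controls. Its widest gap was between control 2 and control 3, and the log2 fold change was 0.03 ± 0.35, turning to -0.28 without control 3.

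All 12 macrophage and monocyte markers were also higher on average in ecko. Their median log2 fold change was 0.15, and 0 passed the edgeR, DESeq2 or limma-voom test. At an unadjusted edgeR p under 0.05 there were 3 higher, against 4.92% of all genes tested. These were Cd68 (0.30 ± 0.08, adjusted p 0.370), Adgre1 (0.30 ± 0.11, 0.510) and Ly6c2 (0.87 ± 0.32, 0.508). Cd68 and Ly6c2 had groups apart, and Adgre1 overlapped. The summed level of all 12 was 787 to 863 CPM in ecko and 726 to 811 CPM in controls, and none was at 0 in all libraries. Csf1r, the growth factor receptor of the lineage, averaged 129 ± 2.81 CPM in ecko and 127 ± 6.17 CPM in controls, and the inflammatory monocyte marker Ly6c2 1.65 ± 0.61 CPM in ecko and 0.901 ± 0.132 CPM in controls. Ly6c2 had few counts, with 25.97, 21.05 and 40.06 in ecko and 15.04, 19.06 and 14.0 in controls. Most of these are not whole numbers, a sign that reads were divided with similar genes, and ecko 3 was the highest library. The summed neutrophil markers ranged from 12.5 to 50.9 CPM in ecko and from 9.24 to 22.3 CPM in controls, highest in library 1 of each group. S100a8 and S100a9 gave 17.8 and 20.1 CPM of the sum in ecko 1. Of the 6 neutrophil markers tested, 4 had a higher mean in ecko and 2 a lower one. Csf3r had groups apart and higher (1.15 ± 0.33, edgeR adjusted p 0.447), and Camp apart and lower (-1.93 ± 0.42, 0.253). Of this list 0 passed with edgeR or limma-voom, and 1 with DESeq2. The part of these markers in the values of Ccl6, Ccl9, Ccr1 and Ccr2 was not tested.

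Ligands of CCR2 did not share a direction, and varied more among controls than between groups. Ccl2, the main monocyte attractant, had 103, 126 and 76 counts in ecko libraries 1 to 3, against 75, 34 and 183 in control libraries 1 to 3. Ccl7 had 95, 116 and 83 counts in ecko and 102, 60 and 229 in controls, and Ccl12 65, 51 and 53 in ecko and 42, 27 and 78 in controls. In all 3 genes control 3 was the highest of the 6 libraries and control 2 the lowest, and the ecko libraries lay between them. Log2 fold changes were 0.06 ± 0.59 for Ccl2, -0.41 ± 0.49 for Ccl7 and 0.20 ± 0.35 for Ccl12. Leaving out control 3 gave 0.92, 0.30 and 0.73, and leaving out control 2 gave -0.36, -0.77 and -0.10, so their direction rests on single control libraries.

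The nearby Ccl8 followed another order. It had 272, 176 and 178 counts in ecko and 304, 92 and 109 in controls, so that library 1 was highest in both groups and the groups overlapped (log2 fold change 0.32 ± 0.49, 1.05 without control 1 and 0.01 without control 2). The eosinophil attractants Ccl11 and Ccl24 also overlapped. Ccl11 had 123, 154 and 118 counts in ecko and 151, 130 and 91 in controls. Ccl24 had 25, 54 and 52 in ecko and 51, 50 and 62 in controls, with ecko 1 alone low (log2 fold change -0.30 ± 0.28, and -0.02 without ecko 1).

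**Figure D4:**
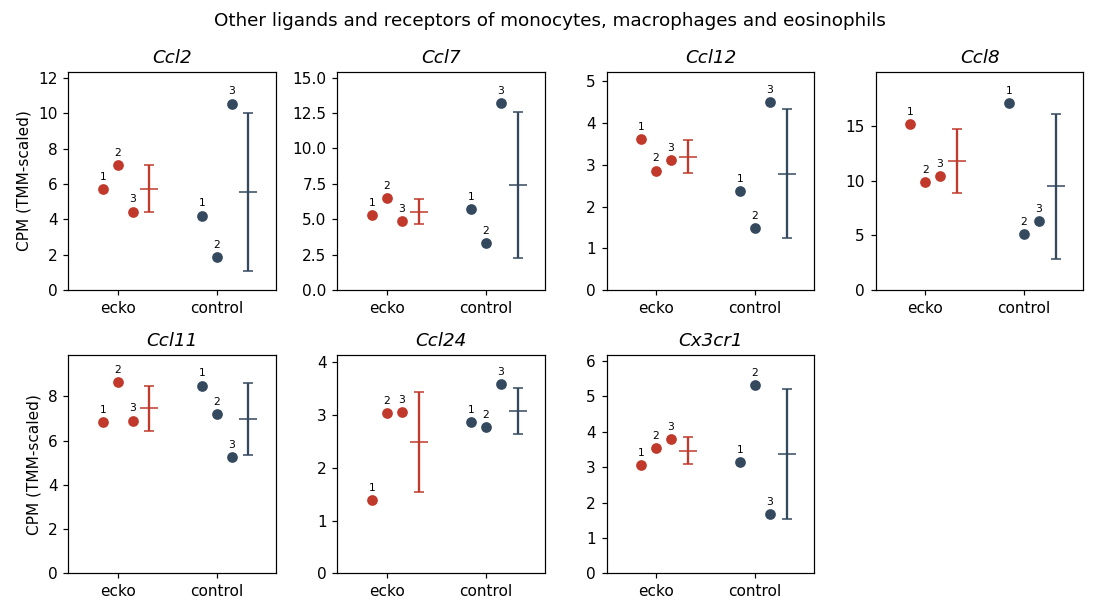
CPM of 7 further ligands and receptors of monocytes, macrophages and eosinophils in each library, with replicate numbers beside the points and mean ± SD (n = 3) to their right, ecko on the left. Control 3 was the highest library for Ccl2, Ccl7, Ccl12 and Ccl24 and the lowest for Ccl11 and Cx3cr1.

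Ligands of lymphatic vessels and stroma showed no difference past the test. Ccl21a had 832, 659 and 657 counts in ecko and 422, 688 and 630 in controls. Control 1 alone was low, ecko 1 alone was high and the groups overlapped, with 40.6 ± 5.02 CPM in ecko and 32.7 ± 7.83 CPM in controls (log2 fold change 0.31 ± 0.18, and 0.12 without control 1). The near-identical Ccl21c had 56.9, 38.7 and 48.8 counts in ecko and 48.8, 51.0 and 48.2 in controls. Expected counts of both are not whole numbers, a sign that reads were divided between similar genes, so the split between them is uncertain. The 6 other lymphatic endothelial markers, of which 5 were lower in ecko on average, had a median log2 fold change of -0.06.

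Ccl19, the second CCR7 ligand, was listed with 0, 0.77 and 1.90 counts in ecko and 1.80, 8.12 and 5.76 in controls, too few for a comparison and also split with similar genes. Ccr7 itself had 2 counts in each ecko library and 6, 2 and 3 in controls. Cxcl12 had 2862, 2726 and 2692 counts in ecko and 2784, 2826 and 2460 in controls, with overlap (log2 fold change 0.05 ± 0.06).

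Epithelial ligands went in both directions. All 7 keratinocyte markers had a lower mean in ecko (median log2 fold change -0.10), with 0 past the edgeR, DESeq2 or limma-voom test, and their summed level overlapped, at 18881 to 21803 CPM in ecko and 18210 to 24190 CPM in controls. Krt15 alone had groups apart (-0.16 ± 0.06, adjusted p 0.531), and the part of these markers in the values below was not tested. Ccl27a, the keratinocyte ligand of CCR10 that draws skin-homing T cells, had 205, 241 and 203 counts in ecko, against 170, 191 and 179 in controls. The groups did not overlap and ecko 2 was the highest, with 12.3 ± 1.11 CPM in ecko and 10.1 ± 0.53 CPM in controls (log2 fold change 0.27 ± 0.12, edgeR adjusted p 0.549). Its near copy Ccl27b had 69.5, 38.7 and 57.5 counts in ecko and 42.02, 91.54 and 14.09 in controls, and the division of reads between the copies is uncertain.

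Ccl28, a mucosal and epithelial ligand of CCR10 and CCR3, was the 1 compared gene whose ecko libraries all lay below the controls. It had 14, 16 and 15 counts in ecko, against 24, 30 and 20 in controls. The means were 0.851 ± 0.063 CPM in ecko and 1.39 ± 0.26 CPM in controls (log2 fold change -0.70 ± 0.27, adjusted p 0.516). Their receptor Ccr10 had 11, 7 and 10 counts in ecko and 6, 14 and 4 in controls, with overlap. Cxcl14 had 3231, 3104 and 3361 counts in ecko and 3146, 3640 and 3389 in controls, and Ccl25, best known from thymus and gut, 30, 23 and 27 in ecko and 26, 37 and 27 in controls. Both overlapped, with log2 fold changes of -0.06 ± 0.07 and -0.16 ± 0.25.

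The membrane-anchored ligands overlapped as well. Cx3cl1, the endothelial and epithelial ligand of CX3CR1, had 173, 139 and 206 counts in ecko and 174, 205 and 197 in controls (log2 fold change -0.14 ± 0.16). Cxcl16 had 181, 137 and 155 counts in ecko and 171, 177 and 151 in controls (-0.07 ± 0.14), and its receptor Cxcr6 22, 17 and 15 in ecko and 21, 16 and 14 in controls. For both ligands ecko 2 was the lowest library of the 6. Of the exon bases of Cxcl16, 18.3% are shared with Zmynd15 on the opposite strand. Expected counts of both genes are not whole in any library, a sign that reads were divided between them across strands.

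Lymphocyte receptors were sparse. Ccr4, carried by skin-homing and regulatory T cells, had 67, 45 and 45 counts in ecko and 33, 45 and 41 in controls. The groups tied at 45 counts and stood apart after scaling alone (log2 fold change 0.41 ± 0.23, adjusted p 0.622, and 0.20 without ecko 1). Its ligand Ccl22 had 30, 22 and 23 counts in ecko and 13, 34 and 19 in controls, with overlap, while the other CCR4 ligand Ccl17 had 0, 0 and 1 in ecko and 3, 0 and 0 in controls. The T cell markers in the table summed to 10.4 to 14.9 CPM in ecko and 10.7 to 14.4 CPM in controls, with 2 of 5 tested higher in ecko. The NK and innate lymphoid markers summed to 98.6 to 109.2 CPM in ecko and 81.6 to 109.3 CPM in controls. Most of that sum was Gata3 alone, with 96.7 ± 4.48 CPM in ecko and 90.9 ± 13.0 CPM in controls. All 5 NK and innate lymphoid markers tested had a higher mean in ecko (median log2 fold change 0.33). The activating receptor gene Klrk1 had groups apart (0.69 ± 0.29, edgeR adjusted p 0.532). The part of these markers in the values of Cxcr3 and Ccl5 was not tested.

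Of the atypical receptors, none had groups apart. Ackr3, the scavenger of CXCL12, had 634, 596 and 616 counts in ecko, against 630, 696 and 742 in controls. Control 1 lay among the ecko libraries, and the means were 34.9 ± 1.35 CPM in ecko and 38.9 ± 3.70 CPM in controls (log2 fold change -0.16 ± 0.09, adjusted p 0.621, and -0.077 without control 3). Ackr4, which removes CCR7 and CCR9 ligands, had 507, 405 and 482 counts in ecko and 451, 485 and 416 in controls (0.05 ± 0.11). Ackr2, the scavenger of inflammatory CC chemokines, had 44, 32 and 34 in ecko and 40, 47 and 43 in controls (-0.23 ± 0.21).

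Ackr1, the venular endothelial and red cell receptor that transports chemokines, had 52.5, 26.9 and 22.8 counts in ecko and 33.7, 64.8 and 23.2 in controls (-0.25 ± 0.42, and 0.24 without control 2). Its counts are divided with Cadm3, which shares 25.7% of its exon bases on the same strand. Ccrl2, which presents the attractant chemerin, had 28, 13 and 23 counts in ecko and 12, 16 and 12 in controls. Of the ecko libraries, ecko 2 alone lay within the control range (0.68 ± 0.34, adjusted p 0.581, and 0.45 without ecko 1). The blood endothelial markers were lower on average in ecko in all 7 cases. Their median log2 fold change was -0.20, and their summed level was 364 to 384 CPM in ecko and 396 to 479 CPM in controls. In the edgeR, DESeq2 and limma-voom tests 0 passed. At an unadjusted edgeR p under 0.05 there were 4 lower, against 4.1% of all genes tested. Groups lay apart and lower in 5, against 8.11% of all genes tested. The part of these markers in the values of Ackr1 and Cx3cl1 was not tested.

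Near-absent genes made up the remaining 22, with mean counts of 0.5 (Ccl1) to 9 (Ccr9). Just below the minimum stood Ccr10 with a mean of 8.67 and Ccr9 with 9, and just above it Ccl5 with 10.5 and Ccrl2 with 17.3. The neutrophil attractants Cxcl1, Cxcl2, Cxcl3 and Cxcl5 were all in this group. Together they had 5, 10 and 15 counts in ecko libraries 1 to 3, against 26, 14 and 39 in control libraries 1 to 3. These sums overlapped, since ecko 3 lay above control 2. Cxcl1 had 2, 2 and 4 counts in ecko and 5, 7 and 12 in controls, and was too low for the test. It was the 1 of the 22 near-absent genes whose groups did not overlap. Of all genes tested, 8.11% had groups apart and lower in ecko. Cxcl2 had 0, 4 and 10 in ecko and 17, 5 and 14 in controls (log2 fold change -1.33 ± 0.78, adjusted p 0.634).

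Other inflammatory CC ligands were also scarce. Ccl5, a product of T and NK cells, had 21, 7 and 12 counts in ecko and 8, 10 and 5 in controls, and did not pass the low-count filter. With no filter its log2 fold change was 0.80 ± 0.46 (adjusted p 0.700). Ccl3 had 4, 3 and 8 counts in ecko and 8, 5 and 3 in controls, and Ccl4 5, 4 and 4 in ecko and 4, 7 and 3 in controls. The pair formed by Xcl1 and the cross-presenting dendritic cell receptor Xcr1 had 6, 7 and 8 counts of Xcl1 in ecko against 11, 8 and 10 in controls, and 10, 8 and 6 of Xcr1 in ecko against 6, 9 and 5 in controls. The follicular pair Cxcl13 and Cxcr5 had 6, 5 and 4 counts of Cxcl13 in ecko against 7, 5 and 6 in controls, and 2, 2 and 0 of Cxcr5 in ecko against 7, 5 and 0 in controls. Each of the other near-absent genes (Ccl20, Cxcl15, Cxcl17, Ccr3, Ccr6 and Ccr8) had groups that overlapped, with 0 to 12 counts per library.

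By position, 14 members lie on chromosome 9, which carries most CC receptor genes, and 14 on chromosome 11, which carries a cluster of CC ligand genes. Of the 9 compared on chromosome 9, 8 had a higher mean in ecko, and the median of the 9 log2 fold changes was 0.39, the exception being Ackr2. Of the 8 compared on chromosome 11, 6 had a higher mean with a median of 0.15.

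Companion genes of chemokine action outside these families were described from fixed lists, and outside the interferon list 0 passed with edgeR, DESeq2 or limma-voom. Of 26 genes of receptor signalling and desensitization, 14 were higher on average in ecko. Their median log2 fold change was 0.04, and 3 were higher and 0 lower at an unadjusted edgeR p under 0.05. Over all genes tested the shares were 4.92% higher and 4.1% lower. Groups lay apart in 3 higher and 2 lower, against 7.55% and 8.11% of all genes tested. The smallest unadjusted p there belonged to the receptor kinase Grk5 (0.28 ± 0.08, adjusted p 0.417), the leukocyte migration factor Dock2 (0.30 ± 0.10, 0.496) and the leukocyte GTPase Rac2 (0.25 ± 0.10, 0.530). Of 12 other chemoattractant receptors tested, 11 had a higher mean in ecko and the median was 0.28. Among them were the complement receptor C3ar1 (0.49 ± 0.16, adjusted p 0.472) and P2ry12 (0.37 ± 0.15, 0.532), whereas the lymphocyte egress receptor S1pr1 had -0.24 ± 0.10 (0.539).

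Among 18 tested genes of the NF-kB and inflammatory cytokine list 11 had a higher mean, with a median of 0.07. The TNF-induced gene Tnfaip2 (0.30 ± 0.12), the NF-kB subunit gene Relb (-0.23 ± 0.12) and Csf1 (0.14 ± 0.07) had its smallest unadjusted p, with adjusted p from 0.532 to 0.610. The 17 genes of chemokine cleavage and matrix capture had a median of -0.02, and the proteoglycan genes Sdc3 and Sdc1 had 0.21 ± 0.06 and -0.16 ± 0.07, with the protease gene Mmp9 at 0.92 ± 0.42. Of the chemokines with other symbols, platelet factor 4 (Pf4) had 615, 571 and 586 counts in ecko and 643, 589 and 588 in controls, and its log2 fold change was -0.03 ± 0.08.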

How the data were processed

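Expected counts per gene were deposited by the authors in 1 table for all 6 libraries, unscaled between libraries; 10.1% to 10.4% of values per library are not whole. RSEM 1.3.1, HISAT2 2.2.1, Bowtie2 2.4.5 and the build GRCm38.p6 are listed per the submitters' processing notes, without a role for each; annotation and strand setting are not given in the sources used here. Libraries were poly(A)-selected, per the labels' protocols. Reads carry no molecular identifiers.

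Counts were rounded and tested as ecko minus control with edgeR 4.0.16 (R 4.3.3): filterByExpr with a minimum count of 10, TMM, robust glmQLFit, two-sided tests, Benjamini-Hochberg adjustment over 14920 genes, threshold 0.05. The SE is the absolute log2 fold change over the square root of F. Members were compared at a mean count of at least 10. Exon lengths are merged exons of GENCODE M21 on the same build, and gene positions and promoters are from RefSeq. Alternatives were other filters and scaling, DESeq2 1.42.0, limma-voom (limma 3.58.1), a replicate block, a Y-linked covariate and each library left out. An exact permutation test of 3 against 3 cannot go below 0.1 and was not used.

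The values of 1 member are not reported here; it stays in the counts and medians. Members, lists and tests were chosen with earlier results of these data known. Counts per library were given for members at an unadjusted p under 0.05 or with groups apart, for set ligand and receptor pairs, and for atypical receptors, and several further members were added after their values were seen. Of companion lists, the genes with the smallest p were named.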

Additional observations from a re-analysis of the deposited data

How the results depend on the processing

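Members past the adjusted threshold numbered 1 (Cxcl10) with DESeq2 and 1 (Cxcl10, log2 fold change 1.98, adjusted p 0.00649) with the replicate block, and 0 under the other alternatives and with any library left out. Deviations from the group means had correlations across genes of 0.168, -0.275 and -0.056 between libraries with the same number. The highest of any pair was 0.357, between ecko 3 and control 2, the libraries nearly without Y-linked reads. These values give no sign that the replicate numbers pair the samples. They cannot exclude it, since the deviations are centred within groups of 3 libraries. Members at an unadjusted p under 0.05 numbered 3 (without control 2) to 7 higher and 0 to 2 lower with 1 library left out, and 0 lower with DESeq2. The median ran from 0.055 to 0.172 over all alternatives, and the number with a higher mean from 19 to 23. A minimum mean count of 5 kept 44 members and one of 20 kept 30. Of the 33 compared members 20 kept their sign throughout, and 13 changed it, each with a library left out. Lowest and highest log2 fold changes then were -0.314 and 0.002 for Cx3cl1, -0.771 and 0.300 for Ccl7, -0.255 and 0.001 for Ccl25, -0.675 and 0.243 for Ackr1, -0.103 and 0.733 for Ccl12, -0.076 and 0.630 for Ccl22, -0.066 and 0.260 for Ccl11, -0.166 and 0.032 for Cxcl16, -0.243 and 0.976 for Ccl27b, -0.068 and 0.265 for Cxcr6, -0.143 and 0.120 for Ccl21c, -0.361 and 0.922 for Ccl2, and -0.284 and 0.516 for Cx3cr1. The cause of these shifts was not tested. Cxcl9 and Ccl28, with 14 to 60 counts per library, stayed short of the adjusted threshold under every alternative run. Of the 22 near-absent members, 3 (Cxcl2, Ccr9 and Ccr10) passed the low-count filter and were tested. Their edgeR adjusted p ran from 0.634 to 0.910. At this depth the counts of all 22 are too low for a firm comparison.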
